A study of Mus musculus with 12 samples.

Results

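The interferon-inducible GTPases of mouse described here are 10 genes of 19505 measured: Iigp1, Tgtp2, Gm4951, Gm4841, Irgm1, Irgm2 and Igtp of the immunity-related GTPase (IRG) family, and Gbp2, Gbp3 and Gbp7 of the guanylate-binding protein (GBP) family. They were chosen by name on measured values, their lower signal with TsSP than with LPS alone, and each is read by 1 probe set of the array. That difference is therefore described without a test; the addition of TsSP to inulin, on 6 other arrays, was tested, although earlier results of it were known as well. Transcripts were measured in RAW 264.7 cells, a virus-transformed mouse line with macrophage features, on 12 Affymetrix arrays in 4 groups of 3. The groups were inulin (a plant fructan) at 500 µg/mL and TsSP at 50 µg/mL together with lipopolysaccharide (LPS, from bacterial outer membranes) at 500 ng/mL; TsSP with LPS; inulin with LPS; and LPS alone, each at the same doses. All were cultured for 6 hours at 37°C in 5% CO2. TsSP is not spelled out in the labels; the design text speaks of helminth products. Every group received LPS, so the induction of these genes by LPS itself is not measured, and everything below rests on 1 transformed line.

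IRG and GBP proteins are part of the defence of cells against microbes that live inside them. They are made after interferons bind their receptors, when transcription factors of the pathway act at short promoter elements, and in macrophages LPS sets this off indirectly through secreted interferon beta. GKS-type IRG proteins such as those of Iigp1 and Tgtp2 load onto the vacuoles of parasites such as Toxoplasma gondii and break them open, GMS-type IRG proteins (Irgm1, Irgm2 and Igtp) hold the GKS type inactive on the cell's own membranes, and GBPs, which resemble dynamin, coat microbial membranes and LPS and promote sensing of LPS in the cytosol.

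The 12 arrays had median log2 signals of 5.16 to 5.30, and the genes brighter than every background probe of the same array numbered 8771 to 9059. LPS replicate 1 stood apart, with the lowest median signal and a background median of 4.99. Its removal left the median of the 10 genes' log2 differences at -1.50 for TsSP against LPS alone, the value with it included. Of 11 measured macrophage markers, 11 were above background on every array, against 0 of 9 for T and NK cells, 0 of 5 for B cells and 1 of 8 (Dcn) for fibroblasts and epithelia. The mean log2 signal of the macrophage markers was 15.15 to 15.26 over the arrays with TsSP and 14.97 to 15.08 over those without. When TsSP was added to inulin 5 of the 11 markers rose, by 1.24-fold (Laptm5) to 1.65-fold (Cd53). The 1 that fell was the surface receptor gene Adgre1, by 2.22-fold. Over all genes 8.66% were called higher and 7.99% lower. The part of these marker shifts in the results was not tested. The labels do not tell whether replicates came from separate cultures, so p-values cover only the spread between these arrays, and with 3 arrays per group that number limits the precision. Signals are averages over a culture, in which fewer expressing cells and less RNA per cell cannot be told apart.

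The promoters of the 7 genes on chromosomes 3 and 11 are shown because interferons are known to act through short promoter elements. Those of Iigp1, Gm4951 and Gm4841 are not shown here, so nothing is said of their elements. The stretches cover the 120 bases before the RefSeq start of each gene (assembly GRCm38.p6), read 5′ to 3′ on the gene's strand. Capitals mark matches to the core of the interferon-stimulated response element (ISRE: GAAA, any 2 bases, GAAA, or TTTC, any 2 bases, TTTC when it lies on the opposite strand) and of the gamma-activated site (GAS, TTCNNNGAA, the same on both strands), which may overlap. Tgtp2 lies at chr11:49064213-49064332 (minus strand), Igtp at chr11:58199436-58199555 (plus), Irgm2 at chr11:58214857-58214976 (plus), Irgm1 at chr11:48871421-48871540 (minus), Gbp2 at chr3:142620543-142620662 (plus), Gbp3 at chr3:142559924-142560043 (plus) and Gbp7 at chr3:142530216-142530335 (plus).
Tgtp2: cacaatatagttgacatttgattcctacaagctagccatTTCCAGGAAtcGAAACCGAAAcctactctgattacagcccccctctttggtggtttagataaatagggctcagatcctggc
Igtp: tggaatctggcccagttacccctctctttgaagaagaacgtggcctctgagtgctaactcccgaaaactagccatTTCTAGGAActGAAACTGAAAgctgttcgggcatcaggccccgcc
Irgm2: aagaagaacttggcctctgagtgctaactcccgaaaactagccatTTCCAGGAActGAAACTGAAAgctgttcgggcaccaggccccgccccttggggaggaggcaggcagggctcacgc
Irgm1: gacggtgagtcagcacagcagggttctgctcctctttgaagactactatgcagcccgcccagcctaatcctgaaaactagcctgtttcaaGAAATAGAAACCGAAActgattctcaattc
Gbp2: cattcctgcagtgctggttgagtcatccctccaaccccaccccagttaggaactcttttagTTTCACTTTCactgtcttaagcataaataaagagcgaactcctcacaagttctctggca
Gbp3: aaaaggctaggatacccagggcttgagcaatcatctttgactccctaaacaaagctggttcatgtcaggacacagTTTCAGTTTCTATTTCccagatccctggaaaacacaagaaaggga
Gbp7: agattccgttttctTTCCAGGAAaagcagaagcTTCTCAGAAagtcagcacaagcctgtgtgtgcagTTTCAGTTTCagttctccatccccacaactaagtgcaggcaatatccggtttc

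All 7 of these genes had an ISRE core in the full window from 250 bases before to 50 after the start. This core was held by 3.99% of 27025 genes with RefSeq windows, and by 3.44% of the 32851 windows. The 7 genes were chosen as a family known to respond to interferons, so these shares are a description. Tgtp2, Igtp, Irgm2 and Gbp7 also had a GAS core, held by 9.55% of genes and 8.30% of windows. In Tgtp2, Igtp and Irgm2 the GAS core ended 2 bases before the ISRE core, beginning 81, 45 and 75 bases upstream of the start. That exact arrangement, in this order on either strand, was searched for after these windows had been read, and 5 of 32851 windows held it (0.0152%): those of Gm12185, Tgtp1, Tgtp2, Igtp and Irgm2, all on chromosome 11. The printed stretches of Igtp and Irgm2 share a run of 38 identical bases, so their matches are not separate observations. In the 3 GBP genes the ISRE core is read on the opposite strand, and in the 4 IRG genes on the same strand. A second RefSeq window of Gbp3 held neither core. A match describes letters, not binding.

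**Figure D1:**
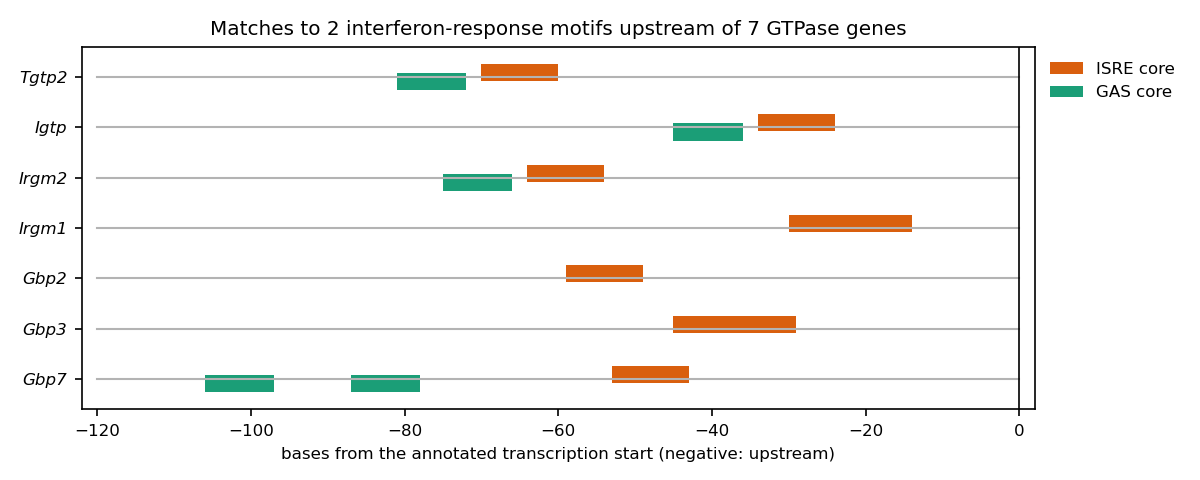
Positions of the ISRE and GAS core matches in the promoter windows of the 7 genes, with distance to the annotated start in bases on the horizontal axis and 1 gene per row. The matches lie between 106 and 24 bases upstream at their first base, and in Tgtp2, Igtp and Irgm2 a GAS core stands directly before an ISRE core.

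The genes of the GKS proteins were among the most reduced with TsSP. Iigp1 (chromosome 18, probe set TC1800000610.mm.2), which encodes Irga6, had log2 signals of 7.62, 7.87 and 8.24 with inulin and TsSP, against 11.66, 11.65 and 11.70 with inulin. On the arrays without inulin it read 8.26, 7.89 and 8.15 with TsSP, against 11.94, 11.81 and 11.47 with LPS alone. The 6 arrays with TsSP thus lay well below the 6 without, with no overlap. When TsSP was added to inulin Iigp1 fell 13.5-fold (log2 difference -3.76, SE 0.18, limma adjusted p = 1.17e-07), and with TsSP it was 12.5-fold lower than with LPS alone.

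Tgtp2 (chromosome 11, probe set TC1100002649.mm.2) encodes a T-cell-specific GTPase also called Irgb6, among the first IRG proteins to reach a parasite vacuole. Its log2 signals were 9.40, 9.06 and 8.30 with inulin and TsSP, against 13.04, 13.15 and 13.09 with inulin. With TsSP they were 9.32, 9.20 and 9.03, against 13.36, 12.64 and 12.94 with LPS alone. The groups did not overlap, and the lowest of the 12 values was replicate 3 of inulin and TsSP. Tgtp2 fell 18.1-fold when TsSP was added to inulin (log2 difference -4.18, SE 0.25, limma adjusted p = 7.11e-07), and was 13.9-fold lower with TsSP than with LPS alone. Tgtp1 is a near-identical neighbour and is not analysed here, so the probes of Tgtp2 may read both.

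Gm4951 and Gm4841 lie in the same chromosome 18 cluster as Iigp1 and carry the RefSeq synonyms Ifgga2 and Ifgga3; their functions are less studied. Gm4951 (TC1800000606.mm.2) had log2 signals of 8.91, 9.13 and 8.35 with inulin and TsSP, against 12.32, 12.23 and 11.68 with inulin. Without inulin the values were 8.73, 8.94 and 8.48 with TsSP, against 12.09, 11.95 and 11.98 with LPS alone. It was thus low on every array with TsSP, falling 9.73-fold when TsSP was added to inulin (log2 difference -3.28, SE 0.22, limma adjusted p = 1.6e-06), and was 9.77-fold lower with TsSP than with LPS alone.

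Gm4841 (TC1800001396.mm.2) was detected only without TsSP. Its log2 signals of 6.20, 5.13 and 5.68 with inulin and TsSP, and of 5.89, 5.61 and 5.61 with TsSP, lay below the brightest background probe on all 6 arrays. It read 9.58, 9.29 and 9.45 with inulin, and 9.26, 9.60 and 9.46 with LPS alone. Since its level with TsSP is only bounded from above, the fall is given against the background level of each array: at least 9.09-fold when TsSP was added to inulin (limma adjusted p = 7.07e-07 on the measured signals). It was at least 9.55-fold lower with TsSP than with LPS alone. All 10 genes were above background in at least 1 group, Gm4841 through the arrays without TsSP.

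**Figure D2:**
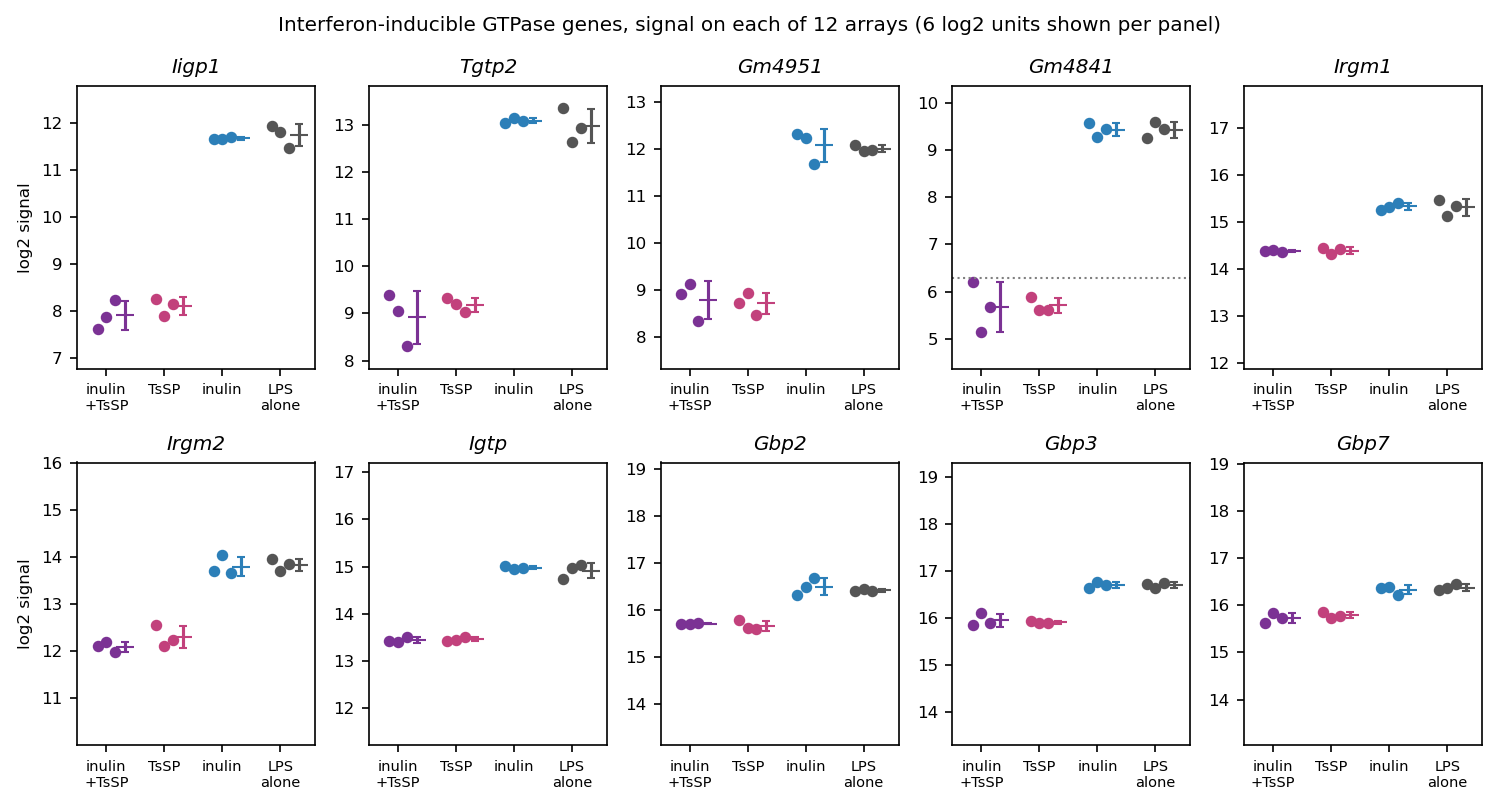
Log2 signal of the 10 genes on each of the 12 arrays, 1 panel per gene, with 1 point per array, a cross for the mean and SD of each group of 3, a dotted line at the brightest background level where it falls in the panel, and the groups in the order inulin and TsSP, TsSP, inulin and LPS alone, all with LPS. In every panel the 6 arrays with TsSP sit below the 6 without, by the widest gap in Iigp1, Tgtp2, Gm4951 and Gm4841 and by the narrowest in the GBP genes.

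The GMS genes fell less, by 1.91-fold to 3.26-fold. Irgm1 (chromosome 11, TC1100002641.mm.2), whose protein guards host membranes and is needed for resistance to mycobacteria in mice, had log2 signals of 14.39, 14.41 and 14.36 with inulin and TsSP, against 15.26, 15.32 and 15.40 with inulin. With TsSP it read 14.44, 14.31 and 14.42, against 15.46, 15.12 and 15.34 with LPS alone. The replicates lay close together and the groups stayed apart. Irgm1 fell 1.91-fold when TsSP was added to inulin (log2 difference -0.94, SE 0.12, limma adjusted p = 0.000175), and was 1.89-fold lower with TsSP than with LPS alone.

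Irgm2 (chromosome 11, TC1100004266.mm.2), a regulator found on Golgi and endosomal membranes, had log2 signals of 12.12, 12.19 and 11.98 with inulin and TsSP, against 13.70, 14.04 and 13.66 with inulin. With TsSP they were 12.56, 12.11 and 12.23, against 13.96, 13.70 and 13.85 with LPS alone. All values with TsSP were again below all those without. It fell 3.26-fold when TsSP was added to inulin (log2 difference -1.70, SE 0.15, limma adjusted p = 1.53e-05), and was 2.90-fold lower with TsSP than with LPS alone.

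Igtp (chromosome 11, TC1100004265.mm.2) encodes Irgm3, which sits on the endoplasmic reticulum and lipid droplets. Its log2 signals were 13.41, 13.39 and 13.51 with inulin and TsSP, against 15.02, 14.95 and 14.97 with inulin. With TsSP they were 13.42, 13.45 and 13.50, against 14.74, 14.97 and 15.03 with LPS alone. The spread within a group was small beside the gap between arrays with and without TsSP. Igtp fell 2.92-fold when TsSP was added to inulin (log2 difference -1.55, SE 0.11, limma adjusted p = 2.75e-06), and was 2.74-fold lower with TsSP than with LPS alone.

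The GBP genes of chromosome 3, in a cluster whose loss in mice impairs caspase-11 activation and control of vacuolar pathogens, were reduced least, by 1.52-fold to 1.71-fold. Gbp2 (TC0300001447.mm.2) had log2 signals of 15.71, 15.70 and 15.72 with inulin and TsSP, against 16.31, 16.49 and 16.67 with inulin. With TsSP they were 15.78, 15.62 and 15.59, against 16.40, 16.44 and 16.40 with LPS alone. Despite the small difference the groups did not overlap. Gbp2 fell 1.71-fold when TsSP was added to inulin (log2 difference -0.78, SE 0.12, limma adjusted p = 0.000688), and was 1.68-fold lower with TsSP than with LPS alone.

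Gbp3 (TC0300001446.mm.2) had log2 signals of 15.84, 16.10 and 15.90 with inulin and TsSP, against 16.64, 16.76 and 16.70 with inulin. With TsSP it read 15.93, 15.89 and 15.89, against 16.72, 16.63 and 16.75 with LPS alone. Its fall when TsSP was added to inulin was 1.69-fold (log2 difference -0.76, SE 0.11, limma adjusted p = 5e-04), larger than the spread in either group. With TsSP it was 1.74-fold lower than with LPS alone. Gbp7 (TC0300001445.mm.2) had log2 signals of 15.62, 15.84 and 15.74 with inulin and TsSP, against 16.37, 16.40 and 16.23 with inulin. With TsSP it read 15.87, 15.73 and 15.78, against 16.32, 16.37 and 16.45 with LPS alone. Gbp7 showed the smallest fall of the 10 genes, 1.52-fold when TsSP was added to inulin (log2 difference -0.60, SE 0.11, limma adjusted p = 0.00261), and was 1.5-fold lower with TsSP than with LPS alone. GBP genes resemble each other closely, and their probes may share transcripts.

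The GBP genes were among the brightest of the array, and whether brightness bears on the size of their falls was not tested. Of all genes, 202 (1.04%) had a mean log2 signal of 16 or more with LPS alone. Of these, 18 fell more than 2-fold when TsSP was added to inulin. The largest of these falls was that of Tnf, 2.79 on the log2 scale from a level of 17.34 with inulin. The share of all genes falling that far is not given, so the count does not tell whether bright genes fell less.

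Counted together, 10 of 10 genes fell when TsSP was added to inulin, against a background of 7.99% of 19505 genes called lower. Earlier results of this comparison were known too, so the count is set beside that share as a description. The median log2 difference of the 10 was -1.62, and that of all genes -0.0013. All 10 had their 3 arrays with inulin and TsSP below the 3 with inulin, which 15.9% of all genes did. With TsSP against LPS alone all 10 were below as well (13.6% of all genes), with a median of -1.50; since that difference was known when the genes were listed, it is a description without a test. Inulin and TsSP together against LPS alone, which shares the LPS arrays, gave a median of -1.61, a range of -4.06 (Tgtp2) to -0.65 (Gbp7) and no overlap in 10 of 10 (13.5% of all genes).

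**Figure D3:**
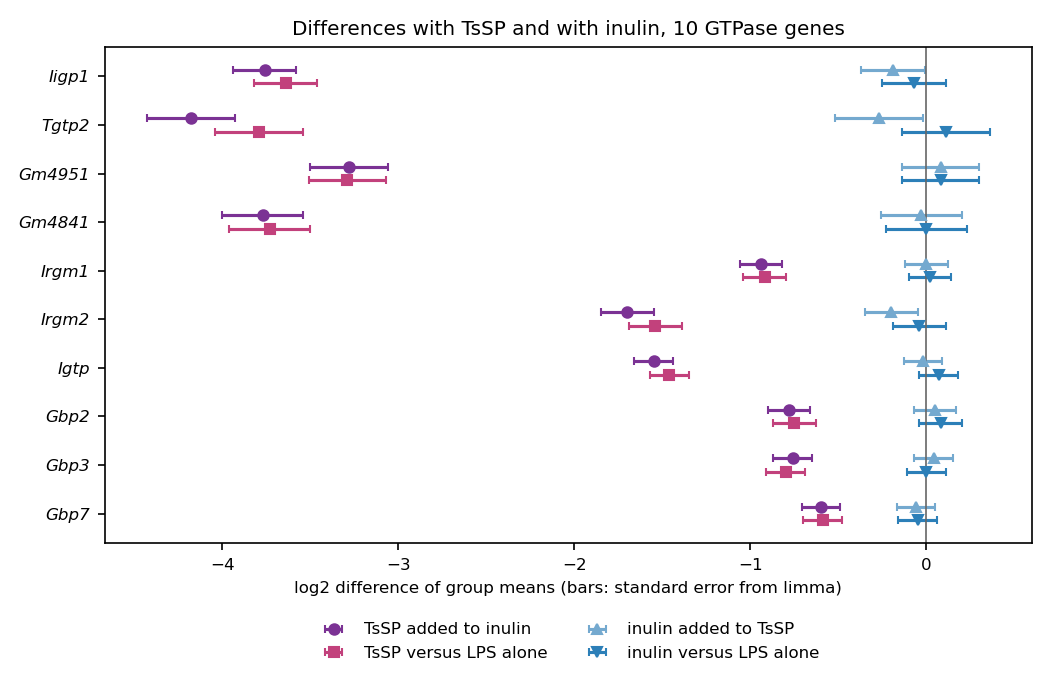
Log2 differences of the 10 genes (horizontal axis, bars for limma's standard error, Gm4841 on its measured signals), for TsSP added to inulin, TsSP against LPS alone, inulin added to TsSP and inulin against LPS alone. The TsSP differences run from -4.18 to -0.59, largest for Tgtp2, while both inulin differences lie between -0.27 and 0.11.

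Inulin made no detected difference to any of the 10 genes. Against LPS alone its log2 differences ran from -0.07 (Iigp1) to 0.11 (Tgtp2), and 0 of 10 passed limma's test, or an unadjusted p of 0.05, where 0 of 19505 genes passed with adjustment (a background of 0%) and 1143 (5.86%) without. The 95% confidence intervals of the 10 run from -0.49 to 0.67, so changes of up to 1.40-fold downwards and 1.59-fold upwards remain possible for single genes. When inulin was added to TsSP the differences ran from -0.27 (Tgtp2) to 0.08 (Gm4951). Here 0 of 10 passed with adjustment (0% of all genes) or without (971 genes, 4.98%), and the intervals run from -0.82 to 0.57. Gm4841 lay below background with TsSP, with or without inulin, so a fall in it could not be read here.

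Whether the TsSP difference itself changed in the presence of inulin was asked with the interaction, which contains the known difference between TsSP and LPS alone. The interaction ran from -0.38 (Tgtp2, SE 0.36) to 0.04 (Gbp3, SE 0.15). It passed limma's test in 0 of 10 genes and in 0% of all genes, and reached an unadjusted p of 0.05 in 0 of the 10, against 1089 genes (5.58%) in all. The intervals of the 10 span -1.16 to 0.69. For Tgtp2 they allow the falls with and without inulin to differ by up to 2.23-fold. The falls of Gm4841 are only bounded from below, so its interaction rests on background readings.

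Other genes of the same families also fell when TsSP was added to inulin, where 7.99% of all genes were called lower and 8.66% higher. Of 7 further IRG genes, 5 fell and 2 did not pass (median log2 difference -1.40). Gm12250, the gene of Irgb10, a GKS protein that acts on bacterial membranes, fell 7.02-fold, with a mean log2 signal of 10.66 ± 0.16 with inulin and TsSP, against 13.47 ± 0.067 with inulin (SD, n = 3 each, limma adjusted p = 1.1e-07). Gm5431 fell 3.18-fold, 9930111J21Rik2 2.64-fold and 9930111J21Rik1 2.63-fold. 9930111J21Rik1 and 9930111J21Rik2 had nearly equal mean log2 signals, 14.34 and 14.31 with inulin and TsSP, and 15.74 and 15.71 with inulin. Their probes may share transcripts, so they may not be separate observations. F830016B08Rik, above background on 2 of 3 arrays with inulin and TsSP, fell at least 3.73-fold. Irgq, the gene of an IRG relative not known to be induced by interferon, differed by 0.42 on the log2 scale (adjusted p = 0.081). Against LPS alone Irgq was higher with TsSP, by 2.16-fold. Its mean log2 signal was 7.77 ± 0.045 with TsSP and 6.66 ± 0.22 with LPS alone (SD, n = 3 each). Earlier results of that comparison were known, so this is a description without a test. Irgc1 was below background. All 3 GBP genes measured outside chromosome 3 fell: Gbp4 4.67-fold, Gbp8 3.87-fold and Gbp9 2.67-fold. Of the larger interferon-induced GTPases 4 of 4 fell, with Gm4759 at 3.91-fold, the antiviral gene Mx1 at 2.98-fold, Mx2 at 1.85-fold and the giant GTPase gene Gvin1 at 1.72-fold. The SE of the log2 differences of these 12 genes ran from 0.10 (Mx2) to 0.30 (F830016B08Rik), and their limma adjusted p was at most 0.00181 (Gvin1). Of 11 dynamin-type GTPase genes that interferons are not known to induce, 2 fell, Ehd4 by 1.51-fold and Ehd1 by 1.41-fold, and 0 rose (median -0.11). The GTPase gene Gbp5 is not analysed here.

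Among genes of the pathway above the GTPases, 4 receptor genes rose and 8 of 14 transducer genes fell. Of 17 ligand and receptor genes 4 rose, 1 fell and 12 did not pass (median 0.21). The shares of all genes were 8.66% called higher and 7.99% called lower. Only 5 of the 17 were above background in at least 1 group: Ifnar1, Ifnar2, Ifngr1, Ifngr2 and Il10rb. All 5 differed upwards, by 0.34 (Ifngr2) to 1.06 (Ifnar1) on the log2 scale, and 4 of them passed. The median of the list is thus mostly that of undetected genes. The receptor chain gene Ifnar1 rose 2.09-fold, with a mean log2 signal of 12.43 ± 0.18 with inulin and TsSP, against 11.37 ± 0.12 with inulin (SD, n = 3 each, limma adjusted p = 2e-04). Ifnar2 rose 1.37-fold (adjusted p = 0.00899), Ifngr1, a chain of the interferon gamma receptor, 1.82-fold (adjusted p = 0.0161) and Il10rb, shared with the interferon lambda receptor, 1.41-fold (adjusted p = 0.019), all by limma. The log2 difference of Ifngr2, the other interferon gamma receptor chain, was 0.34 (adjusted p = 0.0843). Ifnb1, which encodes interferon beta, differed in the test (lower, adjusted p = 0.00337) but was below background on all 12 arrays, so no fold is given, and Ifng was below background too (adjusted p = 0.105).

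Of 14 transducer genes 8 fell, 1 rose and 5 did not pass (median -0.49). Over all genes 7.99% were called lower and 8.66% higher, shares that also stand beside the feedback inhibitor counts below. Batf2 fell 5.26-fold, and Irf1, an activator of GBP and IRG promoters, fell 4.8-fold, with a mean log2 signal of 11.94 ± 0.13 with inulin and TsSP, against 14.20 ± 0.17 with inulin (SD, n = 3 each, limma adjusted p = 7.32e-07). Stat2 fell 1.74-fold and Irf9 1.39-fold, both parts of the complex that binds the ISRE, and the kinase gene Tyk2 fell 1.81-fold. Irf8, a factor of the macrophage lineage, rose 2.67-fold (limma adjusted p = 2.62e-05). Of 12 feedback inhibitor genes 6 fell, 3 rose and 3 did not pass (median -0.22). Socs1, which blocks JAK kinases, fell 5.54-fold (limma adjusted p = 2.49e-05), Cish, below background on the arrays with TsSP, fell at least 2.82-fold, Usp18, which shuts off the type I receptor, fell 2.05-fold and Isg15 1.6-fold. Those that rose were Pias3 by 1.79-fold, Socs3 by 1.56-fold and Ptpn1 by 1.54-fold.

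Processes in which IRG and GBP proteins take part were described by further lists. Beside their counts for TsSP added to inulin stand shares over all genes of 7.99% called lower and 8.66% called higher. Of 14 genes of cytosolic LPS and DNA sensing 10 fell, 1 rose and 3 did not pass (median -0.50). The inflammasome sensor gene Nlrp3 fell 3.65-fold, Pstpip2 2.55-fold, the DNA sensor gene Cgas 2.12-fold and Mndal 1.99-fold (limma adjusted p = 9.98e-07, 2.21e-05, 2.82e-05 and 0.000181). The gene that rose was Pycard, which encodes the inflammasome adaptor ASC, by 1.71-fold (limma adjusted p = 0.00131). The LC3 and GABARAP conjugation system directs these GTPases to vacuoles; of its 18 genes and their partners 4 rose, 2 fell and 12 did not pass (median 0.02). Trim21 fell 5.46-fold and is the member of that list with the largest change, while Map1lc3b, Tax1bp1 and Gabarapl1 rose 1.67-fold, 1.49-fold and 1.56-fold. Atg5 rose 1.58-fold and the cargo receptor gene Sqstm1 fell 1.33-fold. With inulin against LPS alone and with inulin added to TsSP, 0 genes of any of these lists passed.

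**Figure D4:**
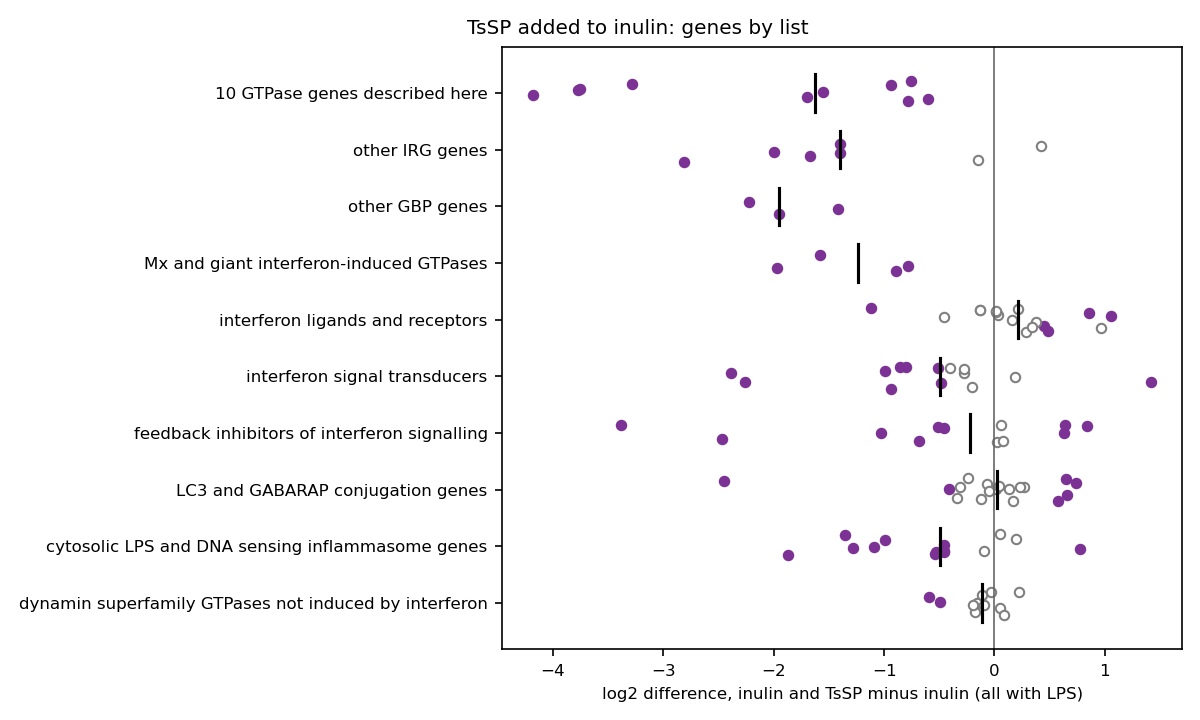
Log2 differences when TsSP was added to inulin for each measured gene of the family and pathway lists, 1 point per gene and 1 row per list, with filled points for genes passing limma's adjusted p and a bar at each list's median. The genes that passed in the GTPase lists all lie left of 0. The LC3 and GABARAP list lies around it, as does the ligand and receptor list, in which 5 of 17 genes were above background.

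The 10 genes lie in 4 clusters, 1 on chromosome 3, 2 on chromosome 11 and 1 on chromosome 18. Of the 16 genes flanking these clusters, 10 were above background and 3 passed the test when TsSP was added to inulin, where 16.7% of all genes passed in either direction: Gemin5, at a log2 difference of -1.17 (adjusted p = 0.00151), Gtf2b, at -0.55 (adjusted p = 0.00612), and Smim3, at 0.65 (adjusted p = 0.0105, all by limma). The differences of the flanking genes ran from -1.17 to 0.65.

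The genes most alike in pattern to the mean of the 10 over the 12 arrays, of 8835 compared, were Cd69, Il27, Cish, Plk2, Tnf and Gch1. Their Pearson r was 0.9982, 0.998, 0.9976, 0.9976, 0.9974 and 0.9974. Compared were genes above background in at least 1 group, without the 10 and without genes bearing Gm, Rik or LOC names. IRG relatives with such names, among them Gm12250 and Gm5431, were therefore not ranked. These arrays form 2 sets, with and without TsSP, and the likeness is carried by the gap between the sets: within the 6 arrays with TsSP the r of these genes ran from 0.15 to 0.62, and within the 6 without from -0.46 to 0.82. An r of 0.98 or more was found for 229 of the genes compared.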

How the data were processed

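Total RNA, purified on RNeasy columns, was biotin-labelled, per the labels' protocols. The authors deposited log2 values, 1 for each probe set of an array; the base is inferred from the range (1.32 to 18.94). How background was corrected and arrays normalized is not given in the sources used here, and could compress dim or bright signals. Values were used as deposited.

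Of 28846 probe sets, 19572 had 1 gene symbol and matched RefSeq (GRCm38.p6) by gene number; the highest-mean probe set stood for the 55 genes with several, giving 19505 genes. Above background means above the brightest of 23 background probes of the array. A group-means model over all 12 arrays was fitted with limma 3.58.1 (lmFit, eBayes) in R 4.3.3, with 8 residual degrees of freedom. P-values are two-sided, Benjamini-Hochberg adjusted over all genes of a contrast, at 0.05. Folds are 2 to the power of the log2 difference, and "at least" folds set the brighter mean against the dim signal, raised on each array to the background level where below it. The fit was tested on simulated data. Python 3.11.15 searched promoters and matplotlib 3.10.9 drew figures.

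The 10 genes and the lists were chosen with earlier results of these data known. Named from each other list were up to 4 called genes of smallest p, or all where 5 or fewer were called. Also named were 14 fixed interferon genes and the 6 genes most alike. Some further genes, among them Irgq, were named outside this rule. A planned search of proteins was not run. Alternatives covered normalization, dim-probe filtering, the model, leaving out arrays and a replicate block.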

Additional observations from a re-analysis of the deposited data

How the results depend on the processing

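The 10 genes kept their direction and their call for TsSP added to inulin under all 21 alternatives tried (210 of 210 values, highest adjusted p 0.0218, for Gbp7 when only the groups compared were fitted). For inulin, inulin added to TsSP and the interaction, 0 of the 10 were called under every alternative, and the signs of uncalled values changed in 31, 14 and 32 cases. Leaving out each array in turn kept 10 calls for TsSP added to inulin and gave medians of -1.55 to -1.45 for TsSP against LPS alone and -1.63 to -1.58 for both against LPS alone. In each of these 2 described comparisons, 7 of 210 single-gene values moved by more than the spread between replicates, without changing sign. Centring arrays on their exon control probe sets gave medians of -1.7 and -1.8. It lowered the median of all genes by 0.11 for TsSP added to inulin, by 0.21 for TsSP and by 0.20 for both. The cause was not tested. This centring put the share of lower calls at 63.0%, 68.2% and 69.5%, against 48.0%, 39.2% and 41.5% as deposited (quantile normalization: 50.5%, 49.1% and 51.1%). Same-numbered arrays did not deviate together (r -0.044 to 0.046 over 18 pairs, and 5 of 12 arrays most correlated with their own number); with the replicate number as a block 10 of the 10 were called, and 2941 in place of 3248 genes in all. Setting dim signals to the background level was added after seeing the data.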

Other observations

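The ISRE core was also counted over all measured genes with a promoter window, the 7 GTPase genes with shown promoters included. It stood in the windows of 107 of 1232 genes that fell when TsSP was added to inulin (8.69%). Of the genes that rose 40 of 1369 held it (2.92%), and of those not called 471 of 13090 (3.6%). For the GAS core these shares were 9.74%, 8.04% and 9.06%. The shares are descriptions without a test. Inside the first IRG cluster of chromosome 11, the proteasome activator-like gene Psme2b, named for its position, had a log2 difference of -1.34 (limma adjusted p = 0.000566) when TsSP was added to inulin.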
